A study of Homo sapiens with 24 samples.

Results

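The comparison described here is the interaction of the progestin R5020 with interferon-alpha in T47D-co, a breast cancer line labelled as carrying the progesterone receptor. It asks, gene by gene, whether R5020 changed RNA levels by a different amount in cells given interferon than in cells given water. It uses 12 of the 24 libraries in the series, 3 biological replicates in each of 4 groups. In these groups cells received water for 18 hours and ethanol vehicle (EtOH) for 6 hours, water and then 10 nM R5020, interferon-alpha (IFN, 20 IU per ml) and then EtOH, or IFN and then R5020. All 4 groups were the same line in the same insulin-containing medium, and the labels do not say how the line was derived or whether IFN was still present during the last 6 hours. The other 12 libraries, the same treatments of T47D-Y, a line labelled as lacking the receptor, served for comparison. Total RNA was sequenced, and 20159 of 25541 genes or merged loci had enough fragments to be tested.

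IFN-alpha binds a cell-surface receptor whose kinases phosphorylate transcription factors of the STAT family, STAT2 among them, and with IRF9 these form a complex that binds the interferon-stimulated response element and switches on antiviral genes. R5020 is a synthetic ligand of the progesterone receptor, a steroid receptor that binds DNA and can raise or lower transcription of its targets. Such inputs to a gene can combine in more than one way, so each result below is given on both scales. On the log2 scale no interaction means that R5020 multiplied the level by the same factor with water and with IFN. On the linear scale it means that R5020 added or removed the same number of fragments. A gene that starts from unequal levels cannot meet both unless R5020 leaves it unchanged.

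Levels are scaled fragments per library, that is estimated fragments divided by a size factor, and they are not corrected for gene length. Log2 interactions are limma estimates ± SE from log2(level + 1), with 3 libraries in every group, and an adjusted p (Benjamini-Hochberg, over all genes tested) under 0.05 made a call. T47D-co libraries held 15374928 to 25570282 estimated fragments, and replicates correlated at 0.9917 to 0.9953 across genes, which are not independent replicates. PGR, the progesterone receptor gene, stood at 25174 to 27956 scaled fragments in T47D-co given EtOH and water and at 649 to 719 in T47D-Y, so it was low in T47D-Y but not absent. Of the 9 luminal epithelial markers 8 were in the table and reached 10 scaled fragments in all 12 libraries, the lowest being EPCAM, an adhesion molecule, at 1444 to 1634. Of 14 markers of other cell types 9 were in the table. The leucocyte gene PTPRC, the T cell gene CD3E and the endothelial gene VWF stayed under 10 scaled fragments, while ALB, the albumin gene, made up most of that list's summed level. The sum ran from 35817 to 36126 with EtOH and water, 29336 to 29525 with R5020 and water, 34593 to 38136 with EtOH and IFN, and 27794 to 28847 with R5020 and IFN, and the part of those markers in the results was not tested. In bulk RNA, fewer cells of a type and less RNA per cell cannot be told apart.

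R5020 and IFN alone were of unequal reach. R5020 changed 11397 tested genes with water (56.5%), 5358 upward (26.6%) and 6039 downward (30.0%), and 11723 with IFN (58.2%), 5551 upward (27.5%) and 6172 downward (30.6%). IFN changed 202 genes in cells given EtOH (1.00%), 115 upward (0.570%) and 87 downward (0.432%), and 2268 in cells given R5020 (11.3%), 1525 upward (7.56%) and 743 downward (3.69%). These comparisons share libraries with one another and with the interaction. The count of 2268 was 1410 and 1215 without R5020 with water replicates 1 and 2 and 1154 and 1262 without R5020 with IFN replicates 1 and 2. It was 1405 with quantile normalization and 1377 with the trend over locus length removed. On the values as deposited, where water and IFN libraries appear to have been scaled apart, IFN changed 8432 genes with EtOH and 7201 with R5020. Against a minimum fold of 1.2 in the main scaling, IFN changed 58 genes with EtOH and 57 with R5020. The order of the IFN counts and the gap between them thus depend on the scaling and on the minimum fold.

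The interaction was called for 203 genes on the log2 scale, or 1.01% of those tested, with 176 positive (0.873%) and 27 negative (0.134%), and 3098 genes had an unadjusted p under 0.05. A positive value means that R5020 raised the gene more, or lowered it less, with IFN than with water. Most were small. The median size was 0.29 on the log2 scale, and 16 of the 203 reached 2-fold. The 176 positive genes had a median R5020 change of 0.26 with water and 0.55 with IFN, and the 27 negative genes had 0.27 with water and -0.35 with IFN. On the linear scale 261 genes were called (1.29%), 225 positive (1.12%) and 36 negative (0.179%). The scales shared 149 genes, each with the same sign on both, while 112 were called on the linear scale only and 54 on the log2 scale only. In T47D-Y 0 genes were called on the log2 scale (limma, 0%) and 0 on the linear scale (0%), with 693 and 570 at an unadjusted p under 0.05. The counts depended on single libraries. Leaving out EtOH with water replicates 1 and 2 in turn gave 101 and 135 log2 calls, R5020 with water replicates 1 and 2 gave 83 and 98, and EtOH with IFN replicates 1, 2 and 3 gave 124, 75 and 416. Leaving out R5020 with IFN replicates 1, 2 and 3 gave 130, 83 and 322. The linear count was 102 and 112 without R5020 with water replicates 1 and 2, 166, 164 and 425 without EtOH with IFN replicates 1, 2 and 3, and 101 and 70 without R5020 with IFN replicates 1 and 2. In all 24 alternative fits compared, 25 of the 203 genes stayed called, among them LAMP3, TRIM14, MLX, CYP1B1 and NEDD9.

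Among antiviral interferon-stimulated genes every called interaction was negative, on both scales. Of 53 tested members 4 were called on the log2 scale, against 0.134% of all genes called negative, and 9 on the linear scale, against 0.179%. In the same list 0 were called positive on the log2 scale by limma in any of the 26 alternatives (0 also at an unadjusted p under 0.05). The log2 count was 1 against a minimum fold of 1.2, 2 without R5020 with water replicate 2 and 7 with a minimum of 50 fragments. The linear count was 2 and 4 without EtOH with IFN replicates 1 and 3, and 5 and 3 without R5020 with IFN replicates 1 and 2. It was 6 on the deposited values and in the fit over genes alone at their locus, and 4 with the length trend removed, where IFI6, BST2, IFIT5, PLSCR1, DDX60L and USP18 lost the linear call. The list's median log2 interaction was -0.15, against 0.02 over all genes tested, and 35 of 53 estimates lay below 0, against 9091 of 20159 over all. On the linear scale 49 of 53 estimates lay below 0, against 9067 of 20159 over all. IFN raised 46 of the 53 in cells given EtOH, against 0.570% of all genes, and 36 of these were called lower with R5020 given IFN, against 30.6%. A gene raised by IFN and lowered by R5020 by the same factor in both states has a negative linear value by arithmetic. The linear signs and counts of this list therefore do not by themselves show unequal folds. In T47D-Y 20 of the 53 lay below 0 on the log2 scale and 12 on the linear scale, with a median of 0.04 and 0 called by limma. The members were chosen with earlier results of these data known.

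LAMP3, a lysosome-associated membrane glycoprotein first known from dendritic cells, had the largest negative interaction among named genes. Its levels were 166, 186 and 214 scaled fragments with EtOH and water. They were 1544, 1478 and 1591 with R5020 and water. With IFN they were 936, 876 and 977 after EtOH and 2655, 2587 and 2477 after R5020. The 4 groups do not overlap, and either agent alone raised the gene while both together gave the highest level. R5020 raised LAMP3 by 3.02 ± 0.08 on the log2 scale with water and by 1.47 ± 0.08 with IFN, an interaction of -1.56 ± 0.11 (limma, Benjamini-Hochberg adjusted p = 1.86e-09). The mean with both agents was 34.0% of the 7567 fragments that equal folds would give. It was 113% of the 2279 that adding the separate differences would give. On the linear scale the interaction was positive, 294 ± 116 scaled fragments, and not called (limma, Benjamini-Hochberg adjusted p = 0.226). LAMP3 was called on the log2 scale in each of the alternative fits, at -1.47 to -1.65 with a library left out.

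TRIM14, an adaptor of antiviral signalling at mitochondria, and PARP12, an ADP-ribosyltransferase that restricts viruses, also had negative log2 interactions, of smaller size. TRIM14 stood at 511, 458 and 484 scaled fragments with EtOH and water and at 1478, 1475 and 1532 with R5020 and water. With IFN it stood at 783, 808 and 829.8 after EtOH and at 1810.2, 1725 and 1869 after R5020. None of these groups overlap. The log2 interaction was -0.47 ± 0.07 (limma, Benjamini-Hochberg adjusted p = 0.00183) and the linear one -16.3 ± 65.3, so the mean was 72.3% of the equal-fold level and 99.1% of the equal-difference level. TRIM14 shares its locus with NANS, to which fragments could have been assigned, and the log2 interaction of their sum was -0.09. PARP12 rose from 230.0, 246 and 252 scaled fragments to 307, 346 and 357 with R5020 alone and to 451, 479 and 496 with IFN alone. With both it was 500.0, 502 and 491, which overlaps the group given IFN and EtOH. Its log2 interaction was -0.40 ± 0.10 (limma, Benjamini-Hochberg adjusted p = 0.0412). The linear one was -71.6 fragments, not called, and the mean was 75.7% of the equal-fold level and 87.4% of the equal-difference level. The log2 call was kept only without EtOH with water replicate 3, R5020 with water replicate 1 or EtOH with IFN replicate 1, and it ended without any other library (-0.36 to -0.47 in all 12 fits).

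TRIM25, the ubiquitin ligase that activates the RNA sensor RIG-I, differed in form because R5020 lowered it. It was at 3129, 3047 and 3081 scaled fragments with EtOH and water and at 1632, 1718 and 1612 with R5020 and water. In cells given IFN it was at 3481, 3447 and 3425 after EtOH and at 1482, 1581 and 1552 after R5020. The R5020 groups lie wholly under the EtOH groups in both states. The fall was larger with IFN on both scales, by -0.27 ± 0.05 on the log2 scale (limma, Benjamini-Hochberg adjusted p = 0.016) and by -481 ± 95.3 scaled fragments (limma, Benjamini-Hochberg adjusted p = 0.00989). TRIM25 was the single member called on both scales, and its log2 call ended without R5020 with water replicate 2 (-0.24 to -0.29 over the 12 fits that leave out a library).

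**Figure D1:**
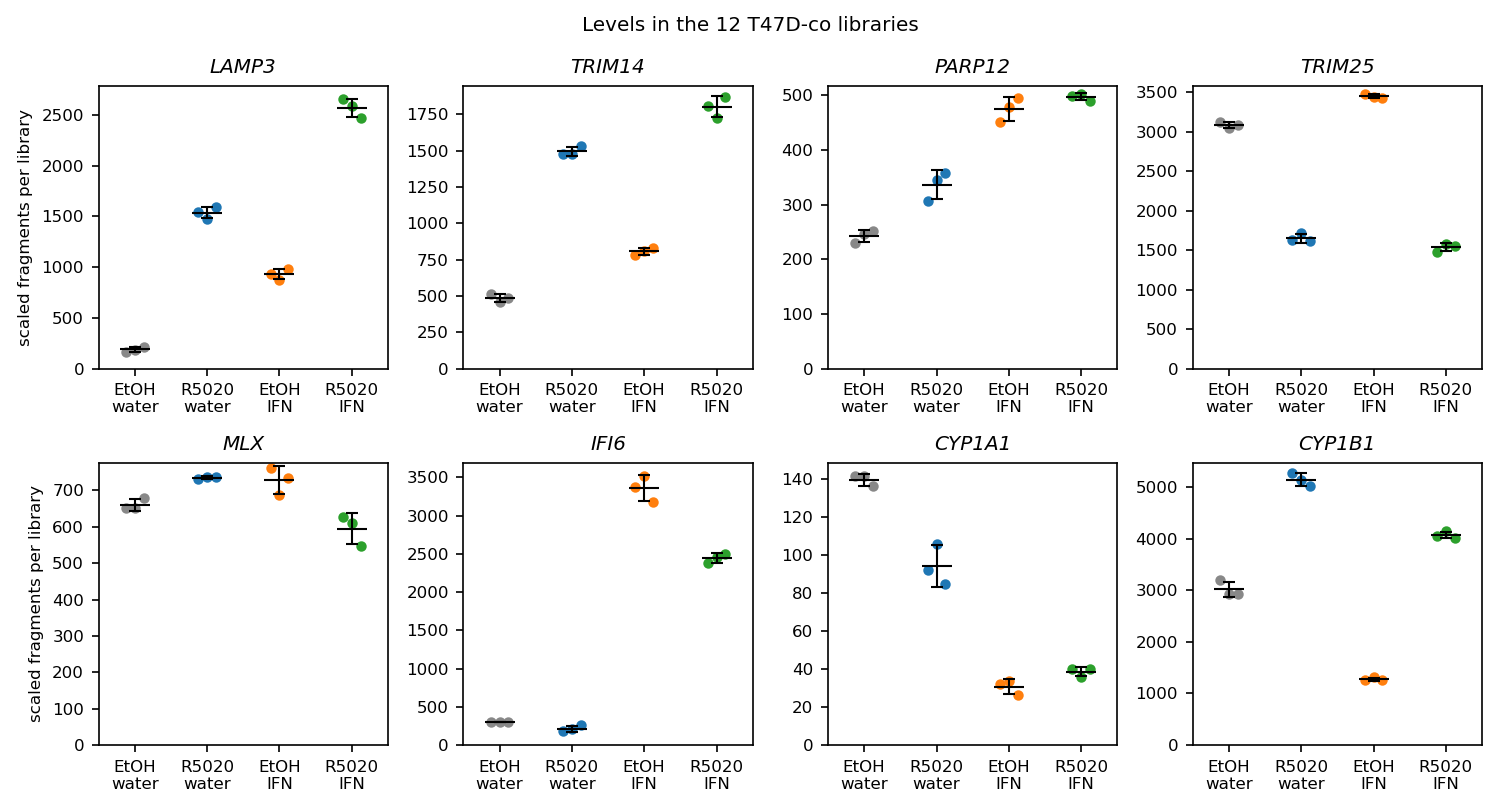
Scaled fragments (vertical axes, each starting at 0) of 8 genes in the 12 T47D-co libraries, by group. Points are libraries, horizontal bars are group means and error bars are SD over 3 libraries; LAMP3 is highest with both agents (2477 to 2655), while CYP1B1 falls to 1256 to 1309 with IFN and EtOH and stands at 4019.5 to 4143 with IFN and R5020.

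The other 8 members called on the linear scale were all raised by IFN in cells given EtOH, from 0.90 on the log2 scale for BST2 to 3.49 for IFI6, and all stood lower with R5020 than with EtOH in cells given IFN. IFI6, a small membrane protein of mitochondria and endoplasmic reticulum, stood at 300.2, 295 and 301 scaled fragments with EtOH and water and at 179, 208 and 257 with R5020 and water. In cells given IFN it was at 3369, 3521 and 3180.0 after EtOH and at 2376, 2461 and 2504 after R5020. R5020 lowered it in both states, and the groups do not overlap. Group means went from 299 to 215 fragments with water and from 3357 to 2447 with IFN, a linear interaction of -826 ± 184 (limma, Benjamini-Hochberg adjusted p = 0.0228), while the log2 interaction was 0.03 ± 0.13. BST2, the tetherin that holds virus particles at the cell surface, fell by 451 ± 99.1 fragments more with IFN, with a log2 interaction of -0.04 ± 0.05. HELZ2, a helicase coactivator, had -997 ± 158 fragments and -0.45 ± 0.12 on the log2 scale, the latter short of the threshold (limma, Benjamini-Hochberg adjusted p = 0.0597).

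IFIT5 binds RNA ends, IFIH1 is the sensor MDA5, PLSCR1 is a phospholipid scramblase, DDX60L is a helicase and USP18 removes ISG15 from proteins and dampens the interferon receptor. Their linear interactions were -110.5 ± 24.6 fragments for IFIT5, -149.8 ± 33.5 for IFIH1, -164 ± 36.2 for PLSCR1, -167 ± 35.2 for DDX60L and -50.1 ± 12.8 for USP18. IFIT5 and PLSCR1 were not lower with R5020 than with EtOH in cells given water, at 94.8 to 98.8 against 78.3 to 95.3 fragments for IFIT5 and at 278 to 311 against 257 to 307 for PLSCR1. With IFN both were lower after R5020, at 169.9 to 237 against 257 to 338 for IFIT5 and at 552 to 578 against 632 to 764 for PLSCR1. On the log2 scale IFIT5 was at -0.73 ± 0.19 and PLSCR1 at -0.41 ± 0.10, neither called (limma, Benjamini-Hochberg adjusted p = 0.054 for both). Apart from HELZ2, these linear calls rested on single libraries. IFI6 lost its call without EtOH with IFN replicates 1 or 2 or R5020 with IFN replicates 1 or 2 (-744 to -914 over the 12 fits), and BST2 without 1 of these or R5020 with water replicate 2 (-407 to -513). IFIT5 lost it without EtOH with IFN replicates 1 or 3 or R5020 with IFN replicates 2 or 3 (-91.3 to -132), and IFIH1 without EtOH with IFN replicates 1 or 3 or R5020 with IFN replicates 1 or 2 (-131 to -185). PLSCR1 lost it without EtOH with IFN replicates 1 or 3 or R5020 with IFN replicate 2 (-138 to -204), and DDX60L without EtOH with IFN replicates 1 or 3 (-143 to -182). USP18 kept it only without EtOH with water replicate 2 or R5020 with IFN replicate 3 (-43.5 to -57.7), and lost it with the replicate number as a block.

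Several antiviral genes with the steepest IFN response had no called interaction on either scale. ISG15, a ubiquitin-like protein that is joined to other proteins, was at 60.0 to 72.2 scaled fragments with EtOH and water and at 35.0 to 46.2 with R5020 and water. With IFN it was at 473 to 547 after EtOH and at 368 to 438 after R5020. The R5020 groups lie under the EtOH groups in both states, with log2 changes of -0.70 with water and -0.36 with IFN, an interaction of 0.34 ± 0.21. MX1, a GTPase that traps viral particles, had 0.18 ± 0.19, and OAS2, a synthetase of the RNase L activator, 0.54 ± 0.31. IFIT1, which binds viral RNA caps, had 0.54 ± 0.43 on the log2 scale and -403.5 ± 146 on the linear scale. IFIT2 and IFIT3 stood at -0.73 ± 0.47 and 0.28 ± 0.57, OAS1 at 0.81 ± 0.44 and IFI27 at -0.64 ± 0.30. The SEs of the IFIT and OAS genes are wide, and their fragments were divided among 5 entries at each shared locus. The log2 interaction of the summed locus was -0.30 at IFIT1 and 0.07 at OAS1, the former opposite in sign to the gene. IFIT1 made up 2.72 to 41.5% of its sum and OAS1 0.41 to 4.03% of its own over the T47D-co libraries. The sums therefore consist mostly of other entries and are not corrected values of either gene. Over the 53 members, 17 had a linear estimate below 0 with a log2 estimate above 0, 32 had both below 0, 3 had a linear estimate above 0 with a log2 estimate below 0, and 1 had both above 0. The median level with both agents was 89.8% of the equal-fold expectation and 77.5% of the equal-difference expectation.

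**Figure D2:**
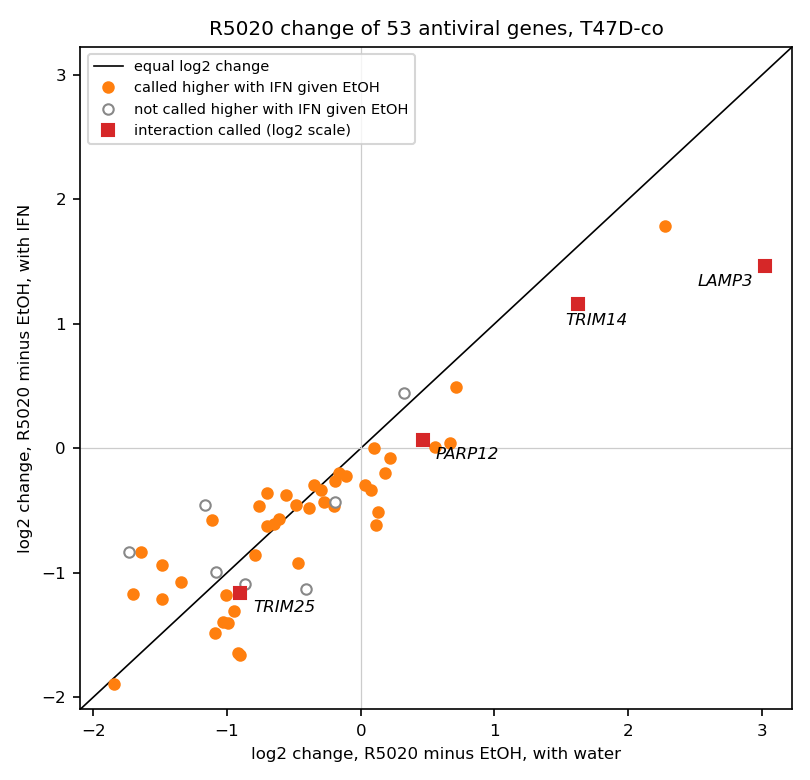
Log2 change by R5020 with water (horizontal) against the same with IFN (vertical) for the 53 tested antiviral genes in T47D-co, 1 point per gene; the 2 changes use separate libraries, and the line marks equal change. LAMP3 (3.02 and 1.47) and TRIM14 (1.63 and 1.16) lie below the line on the upward side, and most other members lie near it on the downward side.

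**Figure D3:**
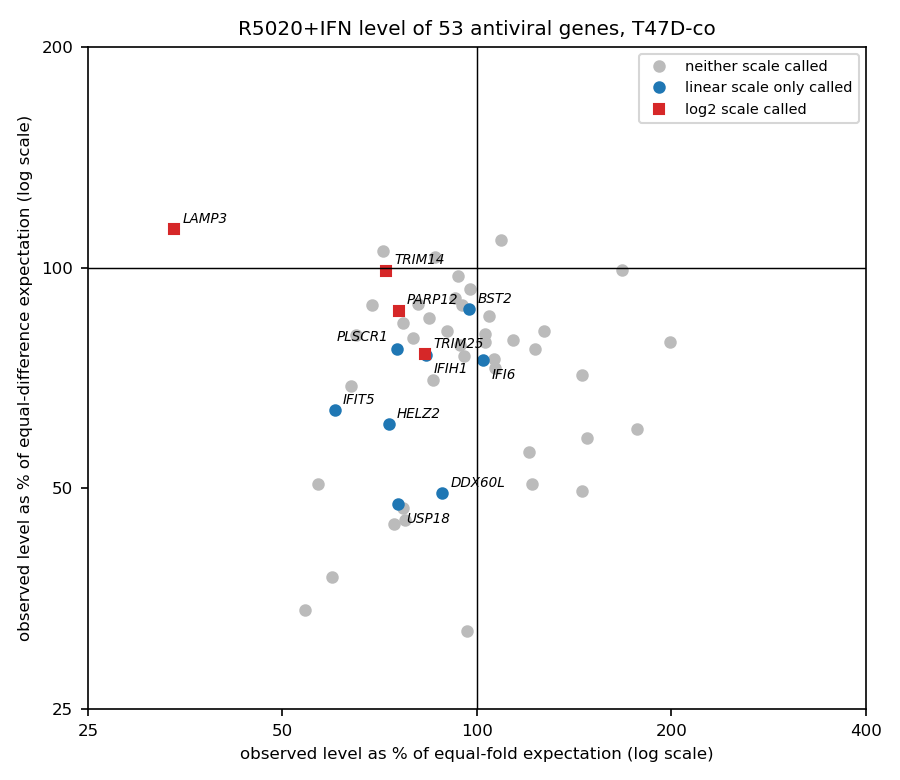
Level of each of the 53 antiviral genes with R5020 and IFN, as a percentage of the level that equal folds would give (horizontal, log scale) and of the level that equal differences would give (vertical, log scale), 1 point per gene from means of 3 libraries. LAMP3 lies at 34.0% and 113%, TRIM14 at 72.3% and 99.1%, and IFI6 at 102% and 74.8%.

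The promoters of these genes were compared to see whether the response element separates members with an interaction from those without. RefSeq promoter windows (GRCh38.p14, 250 bases before to 50 after the annotated start, a later build than the hg19 of the values) existed for 46 of the 59 listed antiviral genes, and 32 of them (69.6%) held GAAANNGAAA on either strand, against 3.65% of all 27305 windows. Matches could overlap one another and are a description, not binding sites. PARP12 and TRIM14 had a called log2 interaction, IFI6 and BST2 a linear one only, and IFIT1 and ISG15 neither. Each is printed 5′ to 3′ on the gene's strand with 20 bases on either side of its matches, and capitals mark the matches, which read as the reverse complement where the element lies on the other strand.
PARP12 (chr7:140062932-140062981, minus strand): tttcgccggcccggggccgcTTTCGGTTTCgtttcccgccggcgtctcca
TRIM14 (chr9:98119219-98119268, minus strand): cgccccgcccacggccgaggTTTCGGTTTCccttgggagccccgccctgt
IFI6 (chr1:27672256-27672368, minus strand): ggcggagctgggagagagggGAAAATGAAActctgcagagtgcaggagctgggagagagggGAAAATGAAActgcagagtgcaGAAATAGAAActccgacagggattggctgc
BST2 (chr19:17405725-17405780, minus strand): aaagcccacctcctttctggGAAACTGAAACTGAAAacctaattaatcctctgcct
IFIT1 (chr10:89392487-89392549, plus strand): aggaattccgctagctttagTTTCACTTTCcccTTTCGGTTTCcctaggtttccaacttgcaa
ISG15 (chr1:1013364-1013419, plus strand): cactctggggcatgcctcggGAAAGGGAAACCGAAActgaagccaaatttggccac
The element was thus present in genes of all 3 kinds. A window with no match was found for TRIM25, called on both scales, for HELZ2, called on the linear scale, and for OAS1, called on neither. LAMP3 has no entry in the promoter table. Over all called genes the element was in 2 of 12 windows of negative genes and in 2 of 118 windows of positive genes, against 2.72% of the windows of tested genes.

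Among the 28 tested genes that carry the interferon signal the median log2 interaction was 0.02, against 0.02 over all genes tested. STAT2, a transcription factor of the IFN complex, was at 872.8 to 930.7 scaled fragments with EtOH and water and at 705 to 777 with R5020 and water. With IFN it was at 1179.8 to 1190.1 after EtOH and at 945 to 1018 after R5020. The 4 groups do not overlap, the R5020 change was -0.30 ± 0.04 on the log2 scale with water and -0.26 ± 0.04 with IFN, and the interaction was 0.04 ± 0.06. IRF1, a transcription factor raised by R5020 by 1.02 ± 0.13 with water and 0.79 ± 0.13 with IFN on the log2 scale, was at -0.23 ± 0.19. IRF7, which amplifies interferon production, was at -0.21 ± 0.14, and the feedback inhibitor SOCS3 at -0.87 ± 0.46, with levels of 3.46 to 20.8 fragments. None of these 4 was called on either scale, and IRF9 lies in a merged entry and was not analysed here.

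The largest positive interactions with a shared function lay in the aryl hydrocarbon receptor pathway, through which cells sense planar aromatic compounds and induce enzymes that oxidise them and oestrogens. Of 8 tested members 3 were called on the log2 scale, all positive, CYP1A1, CYP1B1 and TIPARP, against 0.873% of all genes called positive. On the linear scale CYP1A1 and CYP1B1 were called, against 1.12%. The list's median was 0.17, against 0.02 over all. CYP1B1, an oxidase of oestrogens and xenobiotics, stood at 3188, 2928 and 2931 scaled fragments with EtOH and water and at 5273, 5145 and 5016 with R5020 and water. With IFN it stood at 1256, 1309 and 1257 after EtOH and at 4054, 4143 and 4019.5 after R5020. IFN changed it by -1.24 ± 0.03 on the log2 scale in cells given EtOH and by -0.34 ± 0.03 in cells given R5020, and the 4 groups do not overlap. The interaction was 0.91 ± 0.05 (limma, Benjamini-Hochberg adjusted p = 1.04e-11), or 670 ± 121 scaled fragments (limma, Benjamini-Hochberg adjusted p = 0.00566). The linear call ended on the deposited values (304 fragments) and with the length trend removed (414). The entry is merged with RMDN2-AS1 and shares its locus with CYP1B1-AS1, RMDN2 and 1 more entry, and strand is not given in the sources used here, so their fragments cannot be told apart. The log2 interaction of the summed locus was 0.82.

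CYP1A1, the pathway's most inducible oxidase, was at 141, 141 and 136 scaled fragments with EtOH and water and at 92.0, 106 and 84.5 with R5020 and water. With IFN it was at 32.0, 33.6 and 26.1 after EtOH and at 39.8, 35.8 and 40.1 after R5020. R5020 lowered it with water, by -0.57 ± 0.11, and raised it with IFN, by 0.33 ± 0.11, and no 2 groups overlap. The interaction was 0.90 ± 0.16 on the log2 scale (limma, Benjamini-Hochberg adjusted p = 0.00666) and 53.5 ± 9.98 on the linear scale (limma, Benjamini-Hochberg adjusted p = 0.0068). TIPARP, an ADP-ribosyltransferase that represses the receptor, was at 1058 to 1106 with EtOH and water and at 864 to 952 with EtOH and IFN. R5020 raised it to 10561 to 10761 with water and to 11344 to 12251 with IFN, and the IFN difference was -0.25 ± 0.05 on the log2 scale with EtOH and 0.15 ± 0.05, not called, with R5020. The interaction was 0.40 ± 0.08 (limma, Benjamini-Hochberg adjusted p = 0.0126). AHR, the receptor (0.16 ± 0.06), ARNT, its partner (0.09 ± 0.06), and NQO1, a quinone reductase (-0.03 ± 0.06), were not called.

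The letters GCGTG, the core that the aryl hydrocarbon receptor binds, were in 7 of 9 promoter windows of the list on either strand, against 36.3% of all windows and 49.0% of those of tested genes. They are shown for the called members with a RefSeq window, in capitals, with the same build and margins.
CYP1A1 (chr15:74725561-74725605, minus strand): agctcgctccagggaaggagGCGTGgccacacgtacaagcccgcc
TIPARP (chr3:156674362-156674472, plus strand): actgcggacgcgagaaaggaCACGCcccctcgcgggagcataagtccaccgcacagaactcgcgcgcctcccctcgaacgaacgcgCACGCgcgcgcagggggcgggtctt
A core of this length is common, and it was in 56 of 118 windows of positive genes and in 10 of 12 of negative genes.

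Of 36 tested progestin and glucocorticoid targets 2 were called on the log2 scale (EGFR and ELF5, against 1.01% of all genes) and 2 on the linear scale (FKBP5 and ERRFI1, against 1.29%), all positive. At an unadjusted p under 0.05 there were 13 of the 36, 7 positive and 6 negative, against 3098 of 20159 over all, with a median log2 interaction of 0.03 against 0.02 over all genes. FKBP5, a chaperone partner that dampens steroid receptors, was at 2057, 2064 and 2106 scaled fragments with EtOH and water and at 21308, 20956 and 22474 with R5020 and water. With IFN it was at 2070.2, 2053 and 2211 after EtOH and at 26068, 26033 and 25645 after R5020. The EtOH groups overlap, and the R5020 groups do not. The linear interaction was 4300 ± 711 fragments (limma, Benjamini-Hochberg adjusted p = 0.00318) and the log2 interaction 0.24 ± 0.06, just short of the threshold (limma, Benjamini-Hochberg adjusted p = 0.0518). EGFR, the epidermal growth factor receptor, rose with R5020 from 1409 to 1493 fragments to 4718 to 4963 with water, and from 1278 to 1364 to 5126 to 5310.1 with IFN. Its log2 interaction of 0.23 ± 0.05 lost its call without EtOH with water replicate 3, R5020 with water replicate 1, EtOH with IFN replicate 1 or R5020 with IFN replicate 2 (0.21 to 0.25). ELF5, a transcription factor of the alveolar lineage, changed with R5020 by -1.23 ± 0.03 with water and by -1.04 ± 0.03 with IFN. Its interaction of 0.20 ± 0.04 lost its call without R5020 with IFN replicate 2 (0.17 to 0.22). The kinase SGK1 (0.42 ± 0.16) and the zinc finger repressor ZBTB16 (0.94 ± 0.44, from 3.56 to 12.1 fragments without R5020) were not called, nor was PGR (-0.13 ± 0.07). ERRFI1, an inhibitor of the EGF receptor, had a linear interaction of 181 ± 45.6 fragments, a call kept only without EtOH with IFN replicates 1 or 3 (158 to 204).

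The largest linear rises were of highly expressed R5020-raised genes. The organic ion transporter family member SLC22A23 went from 35672 to 37554 fragments with R5020 and water to 40484 to 41888 with R5020 and IFN, an interaction of 4651 ± 746 on the linear and 0.21 ± 0.04 on the log2 scale, called on both. GRHL2, an epithelial transcription factor, had 3942 ± 908 fragments, the potassium channel KCNMA1 3880 ± 919 and the transcription factor NFIA 3049 ± 584. Of these NFIA was called on the log2 scale as well (0.19 ± 0.04), a call that ended without EtOH with water replicate 1, R5020 with water replicates 1 or 2, EtOH with IFN replicate 2 or R5020 with IFN replicate 2 (0.18 to 0.21). The linear calls of GRHL2 and KCNMA1 each ended without either of R5020 with water replicates 1 and 2 or either of R5020 with IFN replicates 1 and 2. GRHL2 also lost it without R5020 with IFN replicate 3 and KCNMA1 without EtOH with IFN replicates 1 or 2 (3577 to 4295 and 3581 to 4202). Among linear falls, RHOB, a small GTPase, had -1378 ± 339 fragments and the ribosomal protein gene RPL30 -1453 ± 365. RHOB kept its call only without replicate 3 of R5020 with water, EtOH with IFN or R5020 with IFN (-1207 to -1630), and lost it with the replicate number as a block. RPL30 kept its call only without 1 of these or EtOH with water replicate 2 (-1220 to -1661).

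Other genes with large positive interactions were of mixed function. NEDD9, a scaffold of focal adhesions, was at 252, 301 and 270.0 fragments with EtOH and water and at 464, 531 and 473 with R5020 and water. After IFN the values were 199.9, 174 and 187 with EtOH and at 517, 557 and 513 with R5020. IFN lowered it in cells given EtOH, while the R5020 groups overlap. The interaction was 0.66 ± 0.11 (limma, Benjamini-Hochberg adjusted p = 0.00376). MOB3B, of the MOB kinase activator family (0.85 ± 0.13), and CHN2, a Rac GTPase-activating protein (0.70 ± 0.10), were also lower with IFN after EtOH. The changes were -0.74 ± 0.09 and -0.40 ± 0.07, and R5020 raised both genes in both states. In cells given R5020 the mean of MOB3B was 126 fragments with water and 134 with IFN, while that of CHN2 was 194 and 241.

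In a further set R5020 lowered the gene, and lowered it less with IFN. SYTL2, a Rab27 effector in vesicle traffic, fell from 606 to 760.1 fragments to 174 to 192 with water and from 458 to 499 to 180.0 to 197 with IFN, an interaction of 0.56 ± 0.11. KCNH7, a potassium channel (0.73 ± 0.15), PCDH15, a protocadherin of hair cells (0.91 ± 0.20), PKHD1, the fibrocystin gene (0.60 ± 0.12), and CCDC171 (0.54 ± 0.11) had this form. PCDH15 is merged with 5 other names and stood at 19.9 to 61.9 fragments. Its call ended without EtOH with water replicates 1 or 3, R5020 with water replicates 2 or 3, EtOH with IFN replicate 1 or R5020 with IFN replicates 1 or 2 (0.73 to 1.07). KCNH7 lost its call without EtOH with water replicate 2 or EtOH with IFN replicates 1 or 2 (0.55 to 0.90), PKHD1 without EtOH with IFN replicate 2 (0.47 to 0.71) and CCDC171 without EtOH with water replicate 2, R5020 with water replicate 1 or R5020 with IFN replicate 2 (0.48 to 0.60).

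Among the other negative interactions, CTNND2, a delta-catenin, was lowered by R5020 further with IFN. It was at 84.7, 94.9 and 65.7 fragments with EtOH and water and at 39.6, 31.1 and 32.5 with R5020 and water. With IFN it was at 89.3, 89.9 and 106 after EtOH and at 23.9, 19.4 and 19.0 after R5020. The EtOH groups overlap, the R5020 groups do not, and the interaction was -0.93 ± 0.14 (limma, Benjamini-Hochberg adjusted p = 0.00123). MLX, a partner of the glucose-responsive transcription factors, changed direction. R5020 took it from 651 to 680.3 fragments to 732 to 738 with water, and from 689 to 763 to 548 to 627 with IFN, an interaction of -0.45 ± 0.08 (limma, Benjamini-Hochberg adjusted p = 0.00384), and the sum of its locus was at -0.28. KXD1, a subunit of a lysosome-positioning complex, changed in the same way (-0.72 ± 0.15), and the sum of its locus was at -0.20. KXD1 lost its call without EtOH with water replicate 1 or R5020 with IFN replicates 1 or 2 (-0.62 to -0.84). The protease CAPN9 (-0.88 ± 0.21) kept its call only without EtOH with IFN replicate 1 or R5020 with IFN replicate 3 (-0.76 to -1.05). SLC2A6, a hexose transporter (-0.41 ± 0.10), kept it only without EtOH with water replicate 1 or replicate 3 of EtOH or R5020 with IFN (-0.35 to -0.46), and lost it with the replicate number as a block. FAM167A (-0.48 ± 0.10) lost it without R5020 with water replicates 1 or 2, EtOH with IFN replicates 1 or 2 or R5020 with IFN replicate 1 (-0.41 to -0.53).

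In 15 of the 19 lists 0 genes were called on the log2 scale by limma. Ribosomal protein genes were the most uniform. All 39 tested had a log2 estimate below 0, with a median of -0.18 against 0.02 over all genes, and 25 had an unadjusted p under 0.05, yet 0 were called by limma. RPL30, a ribosomal protein gene outside the list, was called at -0.30 ± 0.07 on the log2 scale, a call that held only without the same 4 libraries as its linear one. The median R5020 change of the 39 was 0.00 with water and -0.17 with IFN. In the length comparison given below, the shortest decile of loci also had a median interaction below 0, at -0.09. The part of locus length in the ribosomal values was not tested. The median interaction was -0.11 for 23 nuclear genes of the respiratory chain, -0.15 for 13 NF-kappaB genes and -0.09 for 15 genes of the integrated stress response. It was -0.01 for 26 genes of G1/S and replication, 0.08 for 19 mitotic genes, 0.00 for 22 death and arrest genes, -0.07 for 11 antigen presentation genes and -0.05 for 23 oestrogen-response and luminal genes. At an unadjusted p under 0.05, which 3098 of 20159 genes met over all, there were 7 genes of the respiratory chain, 3 of NF-kappaB, 3 of the integrated stress response, 4 of G1/S, 4 of mitosis, 0 of death and arrest, 2 of antigen presentation and 2 of the oestrogen-response list. In the 6 other lists with no log2 call there were 4 of 20 stress genes, 2 of 21 sterol genes, 3 of 27 spliceosome genes, 0 of 12 chemokines, 0 of 7 markers of other cell types and 0 of 8 luminal markers.

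The interaction of T47D-co was also compared with that of T47D-Y directly. The difference between the lines was called for 12 entries, 0.0595% of those tested, and 1760 had an unadjusted p under 0.05. The count was 5 without EtOH with water replicate 1, 4 without R5020 with water replicate 1, 7 and 19 without EtOH with IFN replicates 1 and 3, 7 without R5020 with IFN replicate 2, and 5 with the replicate number as a block. Of the 12 entries, those described here follow. LAMP3 differed by -1.64 ± 0.15 (limma, Benjamini-Hochberg adjusted p = 8.97e-07). In T47D-Y it stood at 246 to 299 fragments in the 6 libraries without IFN and at 1313 to 1455 in the 6 with IFN, whether or not R5020 was given. CYP1B1 differed by 1.07 ± 0.07, CYP1A1 by 1.25 ± 0.23 and MLX by -0.58 ± 0.11. In T47D-Y CYP1B1 fell with IFN from 7919 to 9105 fragments to 4445 to 4741, and its interaction there was -0.16 ± 0.05. A further 7, outside the rule for named genes and listed after their values were seen, were the calcium channel CACNA1D, the synaptic scaffold HOMER2, the ubiquitin ligase NEDD4L, the sialyltransferase ST3GAL1, 2 non-coding transcripts, RP3-510L9.1 among them, and the merged entry of CYP1B1-AS1 and U6. Each of these was more positive in T47D-co, NEDD4L by 0.33 ± 0.06 and RP3-510L9.1 by 0.84 ± 0.15. TRIM14 (-0.43 ± 0.11), PARP12 (-0.50 ± 0.14) and TRIM25 (-0.26 ± 0.08) were not called for the difference between the lines.

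**Figure D4:**
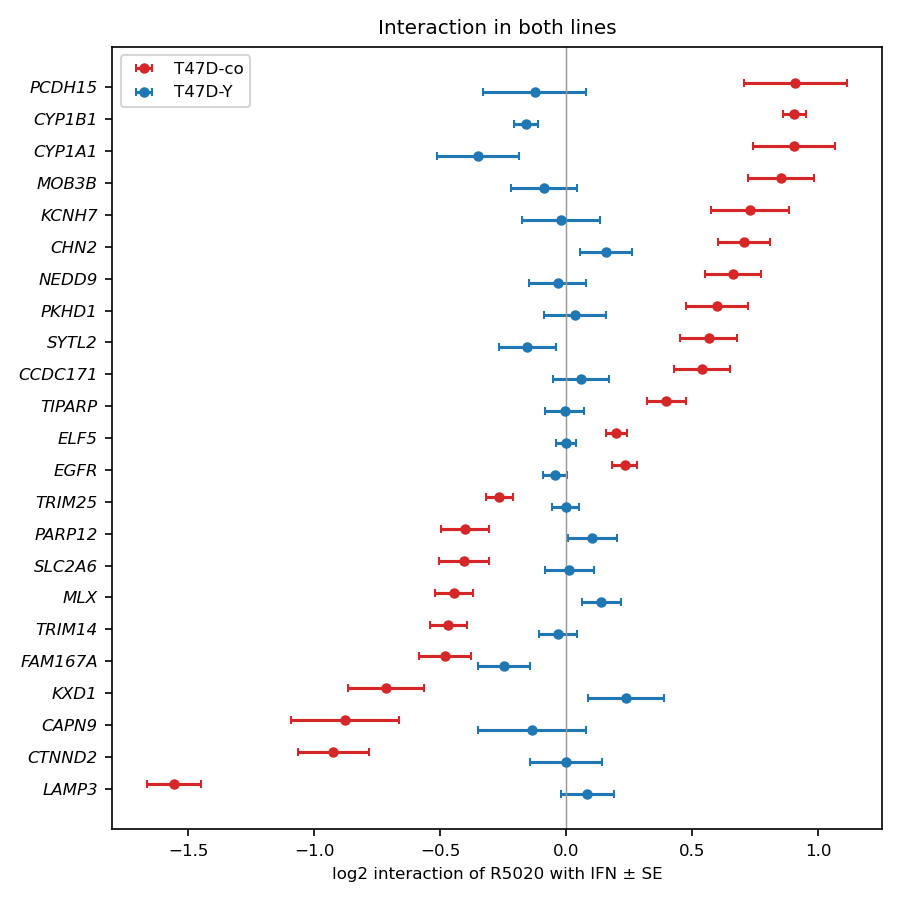
Log2 interaction of R5020 with IFN (horizontal, points ± SE) in T47D-co and T47D-Y for 23 genes called in T47D-co. The T47D-Y points lie between -0.35 (CYP1A1) and 0.24 (KXD1), and the T47D-co points between -1.56 (LAMP3) and 0.91 (PCDH15).

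The interaction also followed the length of the locus. For tested genes averaging 50 fragments or more, the median log2 interaction was -0.09 in the shortest decile of loci and 0.12 in the longest, rising at each step between, and it was 0.01 at both ends in T47D-Y. Of the 176 positive genes 67 lay in the longest decile and 1 in the shortest. The median locus of the positive genes spanned 208897 bases, against 39978 for the negative genes and 49532 over all tested. In each library the longest decile was set against the shortest, as the median deviation from the gene's mean in the line. R5020 with water gave -0.13, -0.13 and -0.08 and R5020 with IFN gave 0.10, 0.12 and 0.03, while the EtOH libraries ran from -0.05 to 0.07. R5020 with water lies under the other groups, and R5020 with IFN overlaps the EtOH groups. The share of fragments from RN7, MALAT1 and RPPH1 transcripts, which are non-coding, was 2.78 to 3.13% in R5020 with IFN and 3.67 to 4.31% in the other 9 libraries. The part of either in the called interactions was not tested. With the length trend taken out of each library, an alternative chosen after seeing the data, 54 genes were called on the log2 scale, 36 positive and 18 negative, of which 49 were among the 203, and 41 on the linear scale. LAMP3, TRIM14, TRIM25, MLX, CYP1A1, CYP1B1, NEDD9 and TIPARP kept their log2 calls there. PARP12, CAPN9, CCDC171, EGFR, KCNH7, KXD1, NFIA, PCDH15, PKHD1, RPL30, SLC22A23 and SLC2A6 lost theirs, and the linear calls of SLC22A23, GRHL2, KCNMA1, NFIA, ERRFI1, RHOB and RPL30 ended as well. Mitochondrial transcripts made up 1.07% of EtOH with water replicate 2 and 3.17 to 4.75% of the other 11 libraries, and without it 135 genes were called, 102 of them positive.

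**Figure D5:**
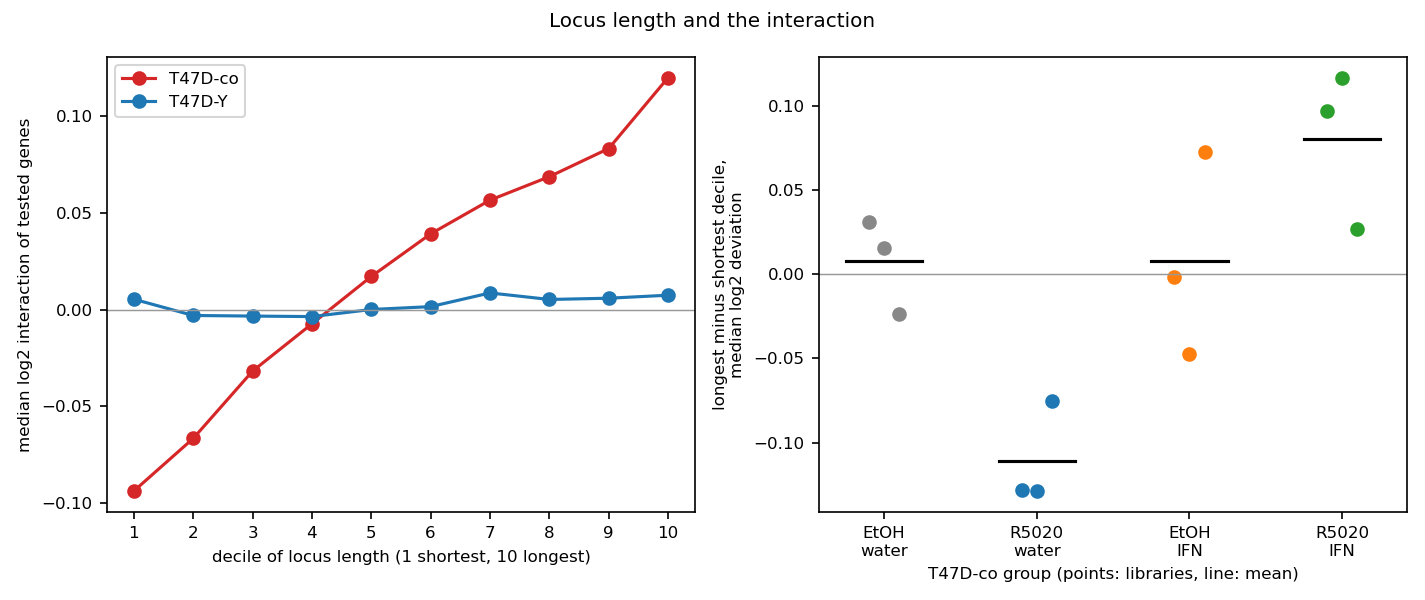
Left, median log2 interaction of tested genes by decile of locus length in T47D-co (rising from -0.09 to 0.12) and T47D-Y (0.01 at both ends). Right, the longest minus the shortest decile in each T47D-co library, as median log2 deviation from the gene's mean in the line, with points for libraries and lines for means; R5020 with water lies lowest (-0.13 to -0.08) and R5020 with IFN highest on average (0.03 to 0.12).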

How the data were processed

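Total RNA of 24 libraries was sequenced, and the tools named, per the submitters' processing notes, are Cufflinks 2.2.1 and TopHat2 2.0.12, with the build GRCh37 (hg19). The deposited values are treated as a signal, as the header names no unit: at genes alone at their locus 98.2 to 99.3% of low values were whole multiples of 1 step per library (tolerance 0.05 of a step), as estimated fragments over a size factor would be. Over all entries 63.2 to 67.9% were, since fragments at shared loci (12952 of 25541 entries) were divided, and no count test was run. The values read as if 4 blocks of 6 libraries had been scaled apart. Each library's scaling was therefore reversed, and median-of-ratios factors were computed from 14200 genes in 24 libraries. Depth was 14140836 to 33607438 fragments. Merged entries holding 1 coding gene (2102 of 3511) were named by it, 28 entries under 11 repeated symbols and 1 line naming no gene were left out.

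Entries with at least 10 scaled fragments in 3 libraries were fitted as log2(value + 1) with limma 3.58.1 (R 4.3.3; variance trend, 8 group means, 24 libraries, 16 residual and 8.05 prior degrees of freedom; two-sided, Benjamini-Hochberg), after parsing in Python 3.11.15. The fit was tested on simulated data. The linear interaction is the difference of differences of arithmetic means, with an SE by the delta method from limma's moderated SD. Libraries of a group are biological triplicates per the labels. The p-values set each estimate against the spread between libraries of the same group, estimated for each gene over all 8 groups of both lines.

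Named genes were up to 10 in each direction by log2 interaction with a group mean of at least 50 fragments, 5 in each direction by linear difference, up to 4 called members of each of 19 lists, and a fixed set of genes of both responses; BST2, IFIH1, IFIT5, PLSCR1, DDX60L, ERRFI1, AHR, ARNT and NQO1 were added from their lists after values were seen. Some results are not reported here. The members and lists were chosen with earlier results of these data known. There were 26 alternatives: other scalings, minimum levels, pseudocounts and variance models, the line alone, the replicate block, a minimum fold, genes alone at their locus, each T47D-co library left out, and the length trend removed. The main fit took no pairing from the replicate numbers (same-number r -0.190 to 0.148), and no batch is given in the labels.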

Additional observations from a re-analysis of the deposited data

Results flagged for a closer look

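LAMP3, MLX, CYP1A1 and CYP1B1 had an interaction of R5020 with IFN that differed between the lines by limma's test of the difference itself. T47D-co minus T47D-Y on the log2 scale, LAMP3 differed by -1.64 and MLX by -0.58, and CYP1A1 by 1.25 and CYP1B1 by 1.07. LAMP3 was raised by R5020 in T47D-co, by 3.02 with water and 1.47 with IFN, and changed by -0.06 and 0.03 in T47D-Y. MLX changed with R5020 by 0.15 and -0.29 in T47D-co and by -0.03 and 0.11 in T47D-Y. CYP1B1 changed by 0.77 and 1.68 in T47D-co and by 0.13 and -0.04 in T47D-Y, and CYP1A1 by -0.57 and 0.33 against 0.17 and -0.18.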

How the results depend on the processing

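No called result of a named gene reversed on the log2 or linear scale under any of the 26 alternatives; of 1085 such results by alternative 811 kept direction and side of the threshold and 274 lost the call. The log2 count of 203 became 74 with total-fragment scaling, 67 with quantile normalization, 73 with voom weights, 5 against a minimum fold of 1.2, 75 over genes alone at their locus and 54 with the length trend removed. The linear count of 261 became 85 with total-fragment scaling, 116 over genes alone at their locus and 41 with the length trend removed. The line difference of 12 became 4 with no minimum level, 4 with voom weights, 5 with the replicate block, 2 against a minimum fold of 1.2 and 6 over genes alone at their locus. With 1 library left out the log2 count ran from 75 to 416, the linear count from 70 to 425 and the line difference from 4 to 19. The causes of these moves were not tested, apart from the fewer genes tested over genes alone at their locus. The share of log2 calls that were positive, 86.7%, fell to 74.3% with total-fragment scaling, 73.1% with quantile normalization, 66.7% with the length trend removed, 75.6% without EtOH with water replicate 2 and 71.4% without R5020 with IFN replicate 3. On the deposited scale the linear calls were 110 positive and 75 negative, against 225 and 36, and the linear calls of BST2, CYP1B1, ERRFI1, FKBP5, GRHL2, KCNMA1, NFIA, RPL30, SLC22A23, TRIM25 and USP18 ended there. With the replicate block 173 genes were called on the log2 scale, 156 of them among the 203, and 219 on the linear scale. Same-number libraries correlated at -0.190 to 0.148 in their deviations, with a median of -0.01. Libraries of unlike number correlated at -0.115 to 0.182. The labels do not say whether libraries of the same number were handled together, and these correlations cannot decide it. CYP1A1, CTNND2, MOB3B and CHN2 lost their log2 calls in the fit on T47D-co alone and with voom weights. So did PARP12, CAPN9, FAM167A, KCNH7, PCDH15, PKHD1 and SLC2A6. SYTL2, CCDC171, ELF5 and RPL30 lost theirs with voom weights. Quantile normalization ended the log2 calls of TIPARP, EGFR, ELF5, NFIA, PARP12, CAPN9, PCDH15, PKHD1, RPL30 and SLC2A6. The linear calls of CYP1A1, CHN2, CTNND2, ERRFI1, FAM167A, IFIH1, NEDD9 and USP18 ended in the fit on T47D-co alone.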
